A study of Mus musculus with 4 samples.

Results

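Serpinb genes encode the clade B serpins, the branch of the serpin family whose proteins lack a classical secretion signal and act mostly inside the cell. Genes were chosen by their symbol, Serpinb followed by a digit, which took 28 of the 37574 genes in the deposited table. Of these, 12 lie in a cluster on chromosome 1 and 16 in a cluster on chromosome 13, and 2 of the 28, Serpinb1-ps1 and Serpinb10-ps, carry pseudogene symbols. The gene ID deposited as Serpinb10-ps is named Serpinb10 in GENCODE M21. RNA came from oral tumours of C57BL/6 mice that carried Bmi1CreER, a tamoxifen-inducible Cre recombinase under the control of Bmi1, and a tdTomato reporter. All mice received 4NQO, a chemical carcinogen, for 26 weeks, and tumours were collected 24 hours after tamoxifen. EpCAM-positive cells, EpCAM being a surface protein of epithelial cells, were sorted by Tomato fluorescence, which gave 2 Tomato-positive and 2 Tomato-negative samples. Both fractions thus share the alleles, the carcinogen, the tamoxifen and the EpCAM gate, and differ in the reporter that marks cells with Bmi1-driven Cre activity. The labels do not give the age of the mice or say whether the samples came from separate animals.

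A serpin presents a flexible reactive centre loop as bait. When a target protease cuts the loop of an inhibitory serpin, the loop inserts into the body of the serpin and the protease is trapped in a distorted, covalently bound form, so the loop sequence largely sets which protease is caught. Clade B serpins are prominent in stratified epithelia and in leukocytes, where they hold proteases that leak from lysosomes or granules in check, and the human SERPINB3 and SERPINB4 proteins were first known as squamous cell carcinoma antigens. The mouse carries expanded sets of close paralogs, Serpinb3a to Serpinb3d on chromosome 1 and the Serpinb1, Serpinb6 and Serpinb9 genes on chromosome 13.

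The loop is also where close paralogs can differ, which is why the loop codons of the Serpinb3 genes and of Serpinb6a, Serpinb6b and Serpinb6c are shown. The stretch runs from the hinge, at a glutamate codon that stands 2 codons before a glycine, up to the codons of the conserved motif behind the loop, as found by translating GENCODE M21 transcripts. Sequences are from the coding strand, 5′ to 3′, and capitals mark bases that differ from, or have no partner in, Serpinb3a for the Serpinb3 genes and Serpinb6a for the Serpinb6 genes.
Serpinb3a: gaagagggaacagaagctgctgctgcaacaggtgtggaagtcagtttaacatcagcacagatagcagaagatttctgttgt
Serpinb3b: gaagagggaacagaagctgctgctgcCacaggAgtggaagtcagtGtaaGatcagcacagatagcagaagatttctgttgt
Serpinb3c: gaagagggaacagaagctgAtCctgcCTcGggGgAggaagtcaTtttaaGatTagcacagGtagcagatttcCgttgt
Serpinb3d: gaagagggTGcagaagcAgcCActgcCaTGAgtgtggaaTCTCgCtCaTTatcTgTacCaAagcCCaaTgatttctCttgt
Serpinb6a: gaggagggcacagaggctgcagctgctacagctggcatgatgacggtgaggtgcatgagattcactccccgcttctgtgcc
Serpinb6c: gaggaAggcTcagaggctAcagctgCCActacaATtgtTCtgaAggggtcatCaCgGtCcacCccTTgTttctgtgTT
Serpinb6b: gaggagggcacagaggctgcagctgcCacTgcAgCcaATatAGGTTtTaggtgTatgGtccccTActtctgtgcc
Against Serpinb3a, the aligned loop bases were 95.1% identical in Serpinb3b, 84.6% in Serpinb3c and 70.0% in Serpinb3d, while the rest of the coding sequence was 91.0% to 92.9% identical in these 3 genes. Against Serpinb6a, the loop was 77.0% identical in Serpinb6c and 78.7% in Serpinb6b, and the rest of the coding sequence 88.2% and 86.9%. The loop thus stood below the rest of the coding sequence in identity in 4 of these 5 comparisons, with Serpinb3b as the exception. Loop identities of the other members, among them Serpinb6d, Serpinb6e and the Serpinb1 and Serpinb9 genes, are not given here.

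Across the 26 members with a full-length coding sequence, pairs with the same family number were 77.2% to 98.7% identical and pairs with different numbers 59.1% to 70.8%. This bears on the counts, because reads from stretches shared by paralogs can be placed on either gene. Of all 50-base windows of the Serpinb3 transcripts, 12.2% in Serpinb3c to 15.1% in Serpinb3a also occurred, letter for letter, in another gene. The share was 78.7% in Serpinb9f and 54.8% in Serpinb9g, 10.4% in Serpinb6c, 2.96% in Serpinb6a, and 0 in Serpinb12, Serpinb13, Serpinb11, Serpinb7 and Serpinb5, with 1 transcript per gene searched against all transcripts of the other genes. In Serpinb10-ps 6.61% of the windows also occurred in a transcript of Serpinb2, so reads from those windows can be placed on either gene. The Serpinb2 transcript searched here shared 0 windows with another gene, so that overlap lies in a different Serpinb2 transcript. The Serpinb3 values are therefore less certain one by one than those of Serpinb12 or Serpinb7, and the Serpinb9f and Serpinb9g values least of all of these.

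**Figure D1:**
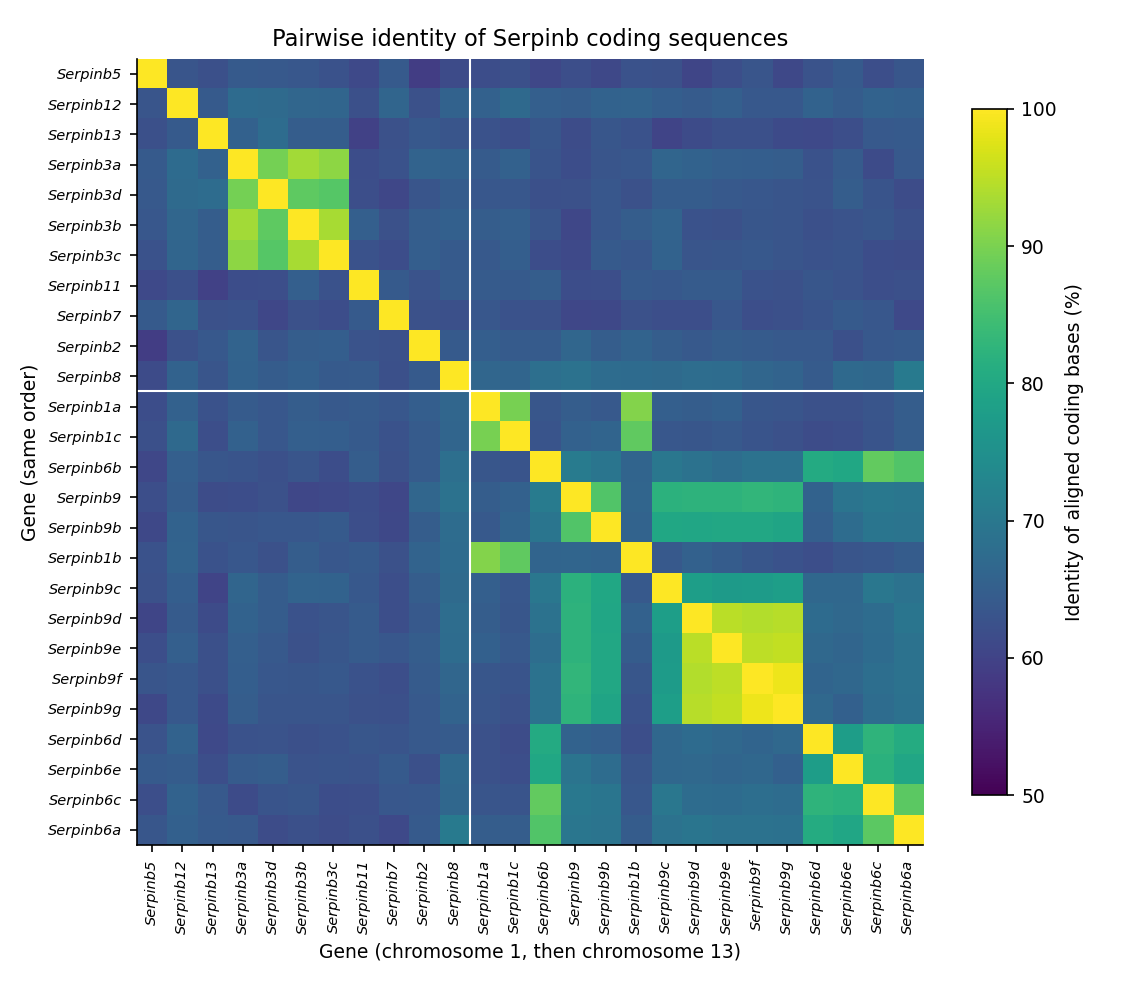
Percent identity of aligned coding bases for every pair of the 26 Serpinb genes with a full-length coding sequence in GENCODE M21, with chromosome 1 genes first, then chromosome 13 genes, in order of position and split by white lines. Pairs within the Serpinb3 family on chromosome 1 and within the Serpinb1, Serpinb6 and Serpinb9 families on chromosome 13 stand at 77.2% or above. All pairs with different family numbers stand at 70.8% or below. The chromosome 13 families are mixed in position, so their pairs do not form unbroken blocks.

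Expression is given in FPKM, fragment numbers set against transcript length and library size, as the single value per gene that the authors deposited for the 2 samples of a fraction together. No SD can be given for such a value, and the depth of the samples is unknown. How far the samples differed among themselves is reflected solely in the p-values and q-values that the authors obtained with Cuffdiff. A gene was counted as called where its q was below 0.05. Log2 folds are Tomato-positive over Tomato-negative on the log2(FPKM + 1) scale, which understates changes of low genes, and plain folds are ratios of the FPKM values. Bmi1 stood at 3.11 FPKM in the Tomato-negative and 7.03 FPKM in the Tomato-positive fraction, with q = 0.00109 in the authors' deposited table. Epcam, the gene of the sorting marker, stood at 25.1 and 46.4 FPKM (q = 0.000405, authors' deposited table). The authors tested 16219 genes and 27.2% of them were called, 13% higher and 14.2% lower in Tomato-positive cells, with a median log2 fold of 0.01. Of the 28 Serpinb genes 19 were tested, 11 were called lower, 2 were called higher and 6 did not pass. The other 9, all on chromosome 13, were not tested and reached at most 0.210 FPKM. Bulk values cannot tell fewer cells of a type from less RNA per cell.

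The chromosome 1 cluster was lower in Tomato-positive cells, by calls that all fell in the middle of the cluster. All 12 genes were tested, and 7 were called lower (58.3%, beside 14.2% of all tested genes) and 0 higher (13% of all tested genes) by the authors' q from Cuffdiff. Only Serpinb5 had a higher value in Tomato-positive cells, with an unadjusted p of 0.994 by Cuffdiff in the authors' deposited table. A threshold of unadjusted p below 0.05 could therefore add no higher call. The median log2 fold was -1.19. Summed over the cluster, the level went from 8341 FPKM in Tomato-negative to 3334 FPKM in Tomato-positive cells, a ratio of 2.50.

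Most of that sum came from 3 genes, Serpinb12, Serpinb3a and Serpinb3c, which held 87.0% of it in the Tomato-negative and 77.0% in the Tomato-positive fraction. Serpinb12, whose human protein inhibits trypsin-like serine proteases, stood at 3979.6 FPKM in the Tomato-negative and 1169 FPKM in the Tomato-positive fraction. It was the most abundant member, ranking 30 among the tested genes in the Tomato-negative and 127 in the Tomato-positive fraction, and it fell 3.40-fold with q = 0.000405 in the authors' deposited table. No gene in the table has a lower q, and 2004 genes share this value, 9 of them Serpinb genes.

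The Serpinb3 genes are the mouse counterparts of human SERPINB3 and SERPINB4, inhibitors of lysosomal cysteine proteases such as cathepsin L and of chymotrypsin-like serine proteases. Serpinb3a stood at 1891 FPKM in the Tomato-negative and 855 FPKM in the Tomato-positive fraction. Serpinb3c stood at 1384 and 541 FPKM, and Serpinb3d at 30.2 and 13.2 FPKM. These 3 genes fell 2.21-fold, 2.56-fold and 2.29-fold in that order, each with q = 0.000405 in the authors' deposited table. Serpinb3b, at 238 and 97.1 FPKM, had a ratio of 2.45 but q = 0.0947 in the authors' deposited table and did not pass. Serpinb3b and Serpinb3c were deposited with the same joined locus, and they share more of their sequence, 93.4% of the aligned coding bases, than any other pair of Serpinb3 genes. Taken as a sum, the 4 Serpinb3 genes held 3542 FPKM in the Tomato-negative and 1506 FPKM in the Tomato-positive fraction, a ratio of 2.35. A ratio of sums always lies within the range of its members.

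Serpinb7, known as megsin and linked in human to a hereditary thickening of the skin of palms and soles, had the steepest fall of the tested Serpinb genes. It stood at 32.8 FPKM in the Tomato-negative and 7.90 FPKM in the Tomato-positive fraction, a 4.16-fold fall with q = 0.000405 in the authors' deposited table. Serpinb13, whose human protein inhibits cathepsins L and K, went from 5.09 to 1.44 FPKM and fell 3.53-fold with the same q in the authors' deposited table. Serpinb11, which inhibits trypsin-like proteases in the mouse but not in human, went from 185 to 78.6 FPKM and fell 2.36-fold, again with q = 0.000405 in the authors' deposited table. The 7 called genes thus cover a range of levels from 5.09 to 3979.6 FPKM in Tomato-negative cells, with folds between 2.21 and 4.16.

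The chromosome 1 genes that did not pass were, apart from Serpinb3b, those at the ends of the cluster. Serpinb5, or maspin, a clade B member without inhibitory activity against proteases, stood at 325 FPKM in both fractions, with q = 0.997 in the authors' deposited table. Serpinb2, the urokinase inhibitor also called PAI-2, stood at 161 and 154 FPKM (q = 0.864, authors' deposited table). Serpinb10-ps, which was deposited with the same locus as Serpinb2, stood at 43.4 and 40.2 FPKM, also above the threshold (q = 0.914, authors' deposited table). Serpinb8, whose human protein inhibits the proprotein convertase furin, stood at 66.8 and 50.5 FPKM (q = 0.556, authors' deposited table). Without an SD for the group values no interval of these differences can be given, and a q above 0.05 does not show that the levels were the same.

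**Figure D2:**
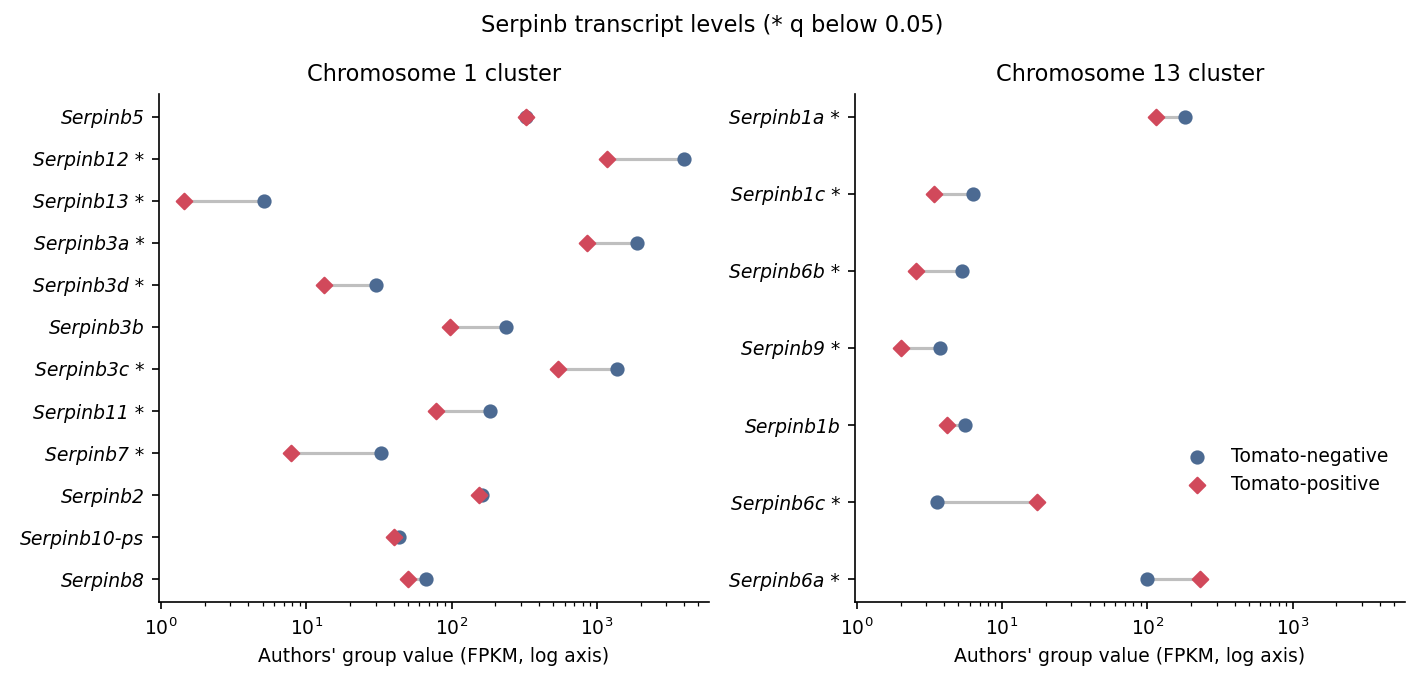
Authors' group values (FPKM, log axis) of the 19 tested Serpinb genes in Tomato-negative (blue circles) and Tomato-positive cells (red diamonds), 1 value per gene and fraction with no error bar, for the chromosome 1 cluster (left) and the chromosome 13 cluster (right) in order of position; an asterisk marks q below 0.05 in the authors' deposited table. The Tomato-positive value lies to the left for the 7 called genes of chromosome 1, and to the right for Serpinb6c and Serpinb6a on chromosome 13.

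The chromosome 13 cluster held calls in both directions, with Serpinb1a, Serpinb1c, Serpinb6b and Serpinb9 lower and Serpinb6c and Serpinb6a higher in Tomato-positive cells. Of its 16 genes 7 passed the authors' filter for testing, and of these 4 were called lower and 2 higher, beside 14.2% lower and 13% higher over all tested genes. The median log2 fold of the 7 was -0.66, with members on both sides. The cluster's sum was 307 FPKM in Tomato-negative cells and 376 FPKM in Tomato-positive cells, as Serpinb6a and Serpinb1a, its most abundant members, moved in opposite directions.

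Serpinb6a is the mouse counterpart of human SERPINB6, an inhibitor of trypsin-like proteases and of cathepsin G. It stood at 99.6 FPKM in the Tomato-negative and 232 FPKM in the Tomato-positive fraction, a 2.33-fold rise with q = 0.000405 in the authors' deposited table. Its neighbour Serpinb6c went from 3.55 to 17.4 FPKM, a 4.90-fold rise with the same q in the authors' deposited table. Serpinb6b, an inhibitor of the T-cell protease granzyme A in the mouse, moved the other way, from 5.27 to 2.54 FPKM (q = 0.00451, authors' deposited table). Serpinb6a was deposited with a locus that also holds Ripk1 and Nqo2, neither of which passed, Ripk1 at 8.13 and 14.1 FPKM and Nqo2 at 2.57 and 1.92 FPKM. Serpinb6d and Serpinb6e, which lie just before Serpinb6c, were not tested and stood at or below 0.197 FPKM in both fractions.

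Serpinb1a, which inhibits neutrophil elastase, cathepsin G and proteinase 3, was the most abundant chromosome 13 member in Tomato-negative cells. It fell from 183 to 114 FPKM, 1.61-fold, with q = 0.00109 in the authors' deposited table. Serpinb1c fell from 6.31 to 3.41 FPKM (q = 0.0329), and Serpinb1b, at 5.58 and 4.21 FPKM, did not pass with q = 0.310 in the authors' deposited table. Serpinb9, the inhibitor of granzyme B that protects killer cells and their neighbours, fell from 3.73 to 2.01 FPKM (q = 0.00738, authors' deposited table). None of the 4 chromosome 13 genes called lower reached a difference of 2-fold on the log2(FPKM + 1) scale. As a plain ratio of FPKM values, Serpinb6b fell 2.07-fold.

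The 9 members that were not tested were Serpinb1-ps1, Serpinb9b, Serpinb9c, Serpinb9d, Serpinb9e, Serpinb9f, Serpinb9g, Serpinb6d and Serpinb6e. Serpinb9b, an inhibitor of granzyme M in the mouse, had the highest of these values, 0.210 FPKM in the Tomato-negative and 0.0816 FPKM in the Tomato-positive fraction. Serpinb1-ps1, Serpinb9c and Serpinb9f were listed at 0 in both fractions. Gm11397, a row that RefSeq lists as Serpinb9h and that the choice by symbol leaves out, stood at 0.0228 and 0.0969 FPKM and was not tested either.

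**Figure D3:**
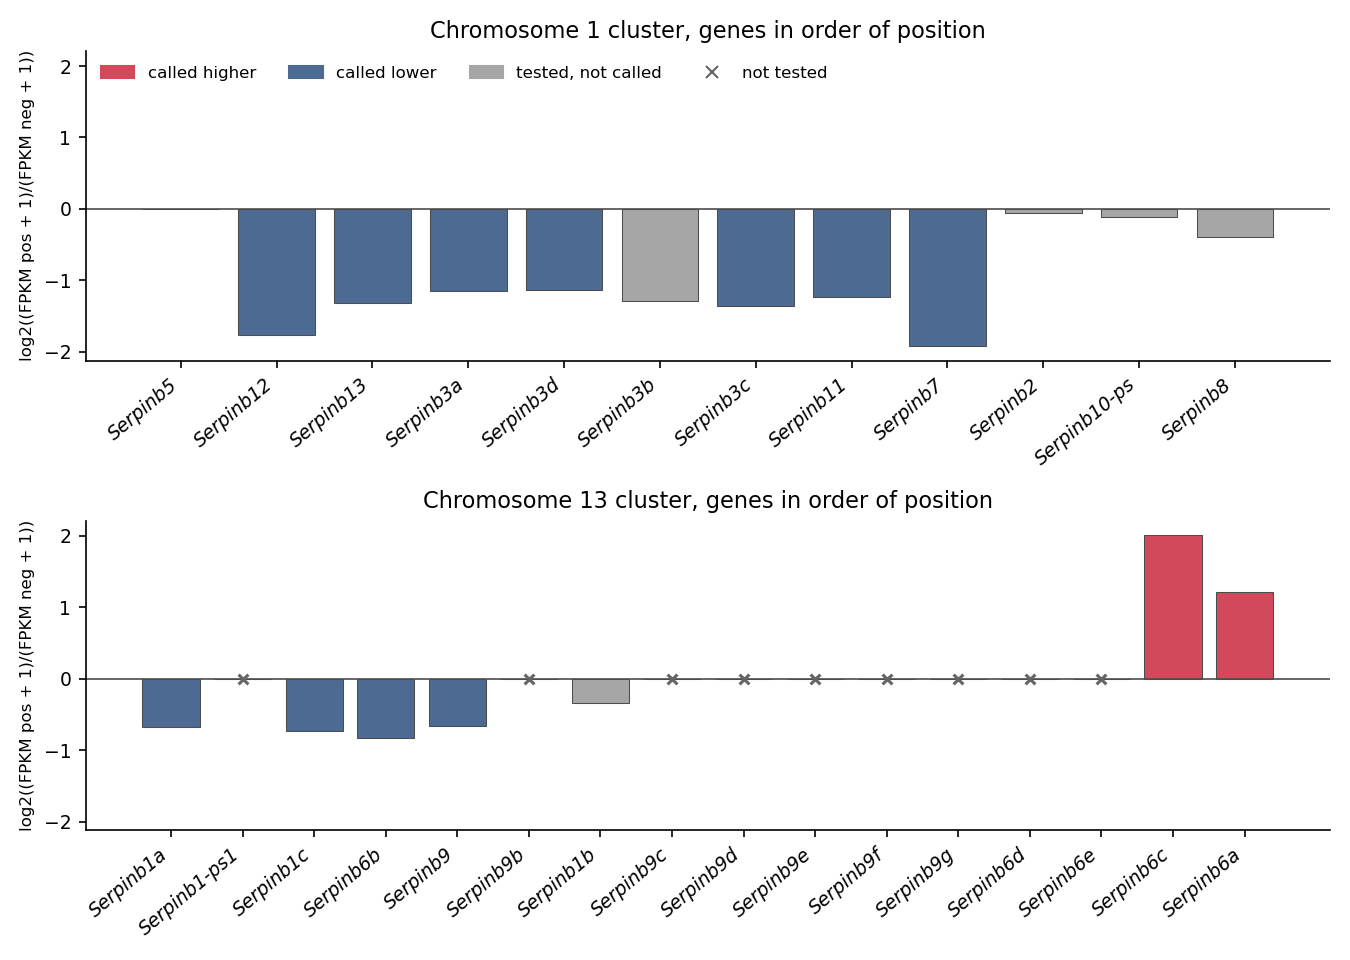
Log2 fold of each Serpinb gene (Tomato-positive over Tomato-negative, log2(FPKM + 1) scale) in order of position along chromosome 1 (top) and chromosome 13 (bottom); red bars were called higher, blue bars lower, grey bars were tested and not called, and crosses mark genes that were not tested. On chromosome 1 the 8 genes from Serpinb12 to Serpinb7 have bars between -1.13 and -1.93 while those at the ends lie between -0.40 and 0.00, and on chromosome 13 the 2 red bars, 2.02 for Serpinb6c and 1.21 for Serpinb6a, stand side by side at 1 end.

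Read along the chromosome, the called genes of chromosome 1 lay within a run with an abrupt step at each end. On chromosome 1 (mm9, from 108757750 to 109505486), Serpinb5 at 1 end had a log2 fold of 0.00, the next 8 genes from Serpinb12 (108831026 to 108853657) to Serpinb7 (109296232 to 109349266) had log2 folds from -1.13 to -1.93, and Serpinb2, Serpinb10-ps and Serpinb8 at the other end had -0.06, -0.11 and -0.40. On chromosome 13 (mm9, from 32933961 to 34129016), the 5 tested genes from Serpinb1a to Serpinb1b had log2 folds from -0.34 to -0.82. A run of 7 genes that were not tested followed, and Serpinb6c (33971685 to 33997577) and Serpinb6a (34009787 to 34129016) closed the cluster. Position and sequence likeness often go together in these clusters, as Serpinb3a to Serpinb3d lie side by side and share stretches of sequence. For those genes position and likeness cannot be told apart here. Serpinb12, Serpinb13, Serpinb11 and Serpinb7 lie in the same run, and coding sequences with different family numbers were at most 70.8% identical. On chromosome 13 families are also mixed in position, with Serpinb1b between Serpinb9b and Serpinb9c, and Serpinb6b apart from Serpinb6c and Serpinb6a. Serpinb6b, a low gene at 5.27 and 2.54 FPKM, had the opposite sign to Serpinb6c, and their coding sequences were 87.9% identical. The part of position or of sequence in the folds was not tested.

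Markers of other cell types and of keratinocyte layers moved in the same comparison. Suprabasal keratinocyte markers, 8 genes in 13 rows because Flg was deposited in several, were called lower in 12 rows and higher in 0, and their sum was 38841 FPKM in the Tomato-negative and 18393 FPKM in the Tomato-positive fraction. Basal keratinocyte markers were called higher in 6 of 6, with sums of 4186 and 19815.5 FPKM. The fall of the chromosome 1 genes thus went with a fall of suprabasal markers, and the part of that shift in the result was not tested. For the chromosome 13 genes that are also made by leukocytes, neutrophil markers were called higher in 5 of 5 tested of 8, with sums of 1408 and 10931 FPKM and with Elane, Mpo and Ly6g not tested and at or below 0.636 FPKM in both fractions. Most of those neutrophil sums are S100a8 and S100a9, which keratinocytes also express, and Csf3r, the receptor for the neutrophil growth factor, stood at 0.637 FPKM in Tomato-negative cells and 17.1 FPKM in Tomato-positive cells. Macrophage and dendritic markers were called lower in 7 of 8, with sums of 348 and 83.7 FPKM. T and NK markers were called lower in 1 of 4 tested, with sums of 23.2 and 5.53 FPKM. Of these markers, Ncr1 was not tested and stood at 0.147 FPKM in the Tomato-negative and 0 FPKM in the Tomato-positive fraction. The leukocyte marker Ptprc stood at 3.42 and 4.93 FPKM and did not pass. Gland, fibroblast, skeletal muscle and mast cell markers were called lower in 5 of 5, 6 of 6, 4 of 5 and 4 of 4, with sums that went from 191 to 10.8, from 549.8 to 84.7, from 658 to 48.5 and from 23.3 to 4.78 FPKM. Endothelial markers were called higher in 3 of 3, with sums of 8.99 and 20.1 FPKM. The part of these cells in the Serpinb values was not tested.

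Proteases that clade B serpins are known to bind, in mouse or human, listed together with the urokinase receptor Plaur, went both ways. Of 27 genes on the list 20 were tested, 6 were called higher and 8 lower, beside 13% and 14.2% of all tested genes, and the list median was -0.12. Members of the urokinase system, the targets and partners of Serpinb2, were higher in Tomato-positive cells while Serpinb2 itself stood at 161 and 154 FPKM. Plau, which encodes urokinase, rose from 20.3 to 77.5 FPKM, its receptor Plaur from 1.64 to 22.03 FPKM and the tissue plasminogen activator Plat from 5.55 to 13.4 FPKM, each with q = 0.000405 in the authors' deposited table.

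Cysteine cathepsins, a class that includes targets of the Serpinb3 proteins and of Serpinb13, were divided. Ctsl rose from 116 to 216 FPKM (q = 0.000405, authors' deposited table), and Ctsh from 45.9 to 69.3 FPKM (q = 0.0340, authors' deposited table). Ctss fell from 43.3 to 16.6 FPKM and Ctsk from 8.39 to 2.49 FPKM, both with q = 0.000405 in the authors' deposited table. Ctsb stood at 97.1 and 112 FPKM and did not pass. Macrophage and dendritic markers, from cells that express Ctss, were called lower in the same comparison in 7 of 8, and fibroblast markers in 6 of 6. The part of those cells in the cathepsin values was not tested.

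Trypsin-like and chymotrypsin-like proteases of the epidermal surface were lower or did not pass. Klk5, a kallikrein that starts the cascade that loosens corneocytes, fell from 41.4 to 13.7 FPKM and Prss8, or prostasin, from 38.6 to 16.5 FPKM, both with q = 0.000405 in the authors' deposited table. St14, or matriptase, fell from 46.6 to 28.6 FPKM (q = 0.00172), and Klk7 from 118 to 86.0 FPKM (q = 0.0388, authors' deposited table). Klk6 (33.8 and 25.9 FPKM) and Klk8 (258 and 349 FPKM) did not pass. Furin, the convertase that Serpinb8 inhibits in human, rose from 19.2 to 43.7 FPKM (q = 0.00934, authors' deposited table), while Serpinb8 stood at 66.8 and 50.5 FPKM.

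Proteases of leukocyte granules were mostly too low to be tested. Elane, Prtn3, Ctsg, Gzmb and Gzmm were not tested and stood at or below 0.367 FPKM, and Plg and F2 at or below 0.0896 FPKM. Gzma, at 1.28 and 0.448 FPKM, did not pass. The mast cell chymases Cma1, from 4.94 to 0.966 FPKM (q = 0.00290), and Mcpt4, from 7.45 to 1.39 FPKM (q = 0.000758, authors' deposited table), fell with the mast cell markers, of which they are a part. The caspases Casp1 (71.4 and 78.1 FPKM) and Casp8 (11.4 and 14.9 FPKM) did not pass.

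**Figure D4:**
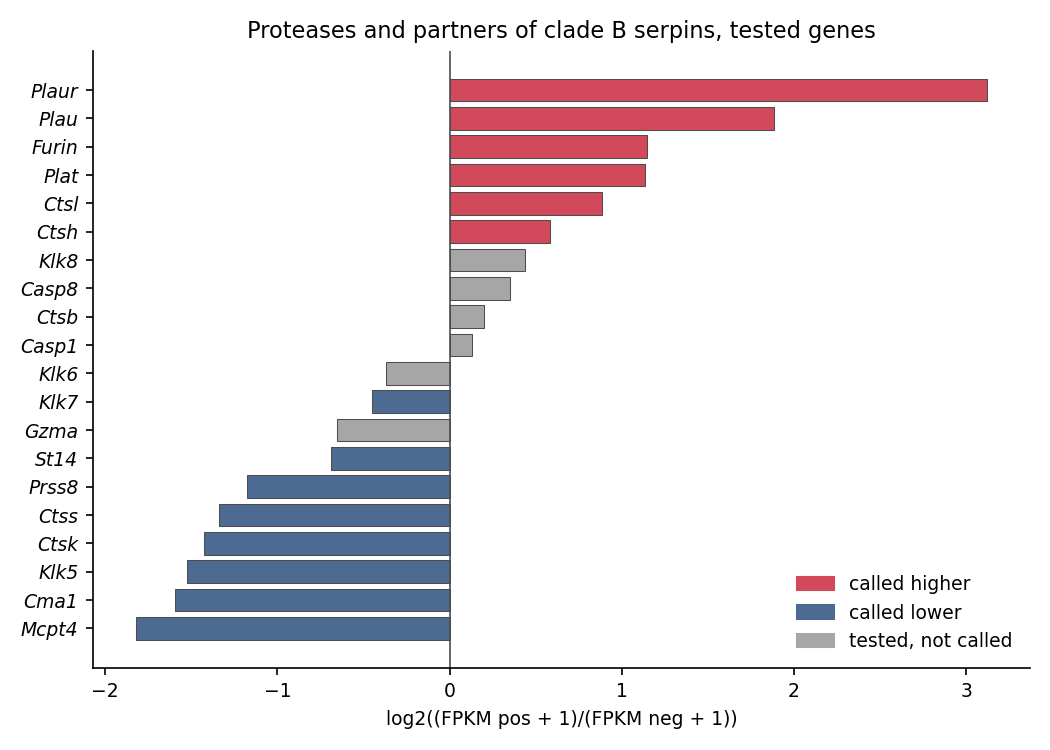
Log2 fold (Tomato-positive over Tomato-negative, log2(FPKM + 1) scale) of the 20 tested genes among 27 proteases and partners of clade B serpins; red bars were called higher, blue lower, and grey were tested and not called. Plaur, at 3.12, and Plau, at 1.88, stand at the top, and Mcpt4, at -1.82, at the bottom.

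The promoters of the Serpinb3 genes, which all had lower values in Tomato-positive cells, are shown because those of Serpinb3a, Serpinb3b and Serpinb3c are near copies while that of Serpinb3d is not. RefSeq sequences on GRCm38.p6 were matched by symbol for 25 of the 28 members, in 31 windows from 250 bases before to 50 bases after an annotated start. The 250 bases before the start are printed 5′ to 3′ on the gene's strand, with capitals for TATAAA or its reverse complement.
Serpinb3a, chr1:107052304-107052553, minus strand: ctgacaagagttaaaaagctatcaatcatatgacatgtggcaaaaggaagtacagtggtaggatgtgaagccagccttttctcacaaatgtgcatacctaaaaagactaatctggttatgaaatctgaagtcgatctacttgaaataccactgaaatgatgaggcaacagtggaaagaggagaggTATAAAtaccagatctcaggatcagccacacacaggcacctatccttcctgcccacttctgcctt
Serpinb3b, chr1:107161115-107161364, minus strand: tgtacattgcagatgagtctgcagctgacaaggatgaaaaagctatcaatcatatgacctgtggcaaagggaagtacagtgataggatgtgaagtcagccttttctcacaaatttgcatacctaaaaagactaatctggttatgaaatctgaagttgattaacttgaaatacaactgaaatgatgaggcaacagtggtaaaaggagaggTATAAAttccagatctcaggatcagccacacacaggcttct
Serpinb3c, chr1:107278372-107278621, minus strand: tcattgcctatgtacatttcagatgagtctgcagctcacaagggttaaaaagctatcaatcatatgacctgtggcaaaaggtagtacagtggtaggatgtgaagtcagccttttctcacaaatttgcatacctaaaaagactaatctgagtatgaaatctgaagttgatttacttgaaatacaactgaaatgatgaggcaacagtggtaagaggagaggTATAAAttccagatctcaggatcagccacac
Serpinb3d, chr1:107083481-107083730, minus strand: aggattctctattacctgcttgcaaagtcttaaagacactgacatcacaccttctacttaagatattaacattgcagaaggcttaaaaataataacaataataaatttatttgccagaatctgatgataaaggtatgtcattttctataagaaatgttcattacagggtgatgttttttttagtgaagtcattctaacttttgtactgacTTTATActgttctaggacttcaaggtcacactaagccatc
The window of Serpinb3a was 93.6% identical to that of Serpinb3c and 93.1% to that of Serpinb3b, but 58.1% to that of Serpinb3d over the aligned bases, and the log2 folds of the 4 genes lay between -1.13 and -1.35. TATAAA, searched on both strands, occurred in 11 of the 31 windows (35.5%), beside 13.6% of all 32851 promoter windows in the table. By gene it was found in 7 of 11 on chromosome 1 and in 2 of 14 on chromosome 13. The AP-1 motif TGAGTCA occurred in 2 of 31 windows (6.45%, beside 5.20% of all), those of Serpinb7 and Serpinb8. Its looser form TGANTCA, which contains TGAGTCA and also takes letters that AP-1 is not known to favour, occurred in 8 of 31 windows (25.8%, beside 7.81% of all), all on chromosome 1. TTGCNNAA, a C/EBP-like motif, and TTCNNNGAA, a STAT-like motif, occurred in 4 windows each (12.9%, beside 10.8% and 8.30% of all). The windows of a gene with several starts can overlap, as those of Serpinb2 do, and a match is a description of letters.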

How the data were processed

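RNA of 4 samples, 2 per fraction, was sequenced. The submitters' processing notes name TopHat and Cuffdiff as tools and mm9 as the genome build. Tool versions, the annotation and the strand setting are not given in sources used here. The authors deposited, per the file headers, 1 FPKM value per gene and fraction, a test statistic (a score, not used), a p-value and a q-value adjusted by the authors. No values per sample were used, so no SD, interval or fit was made, and sample depths are unknown.

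Log2 folds were computed from FPKM with a pseudocount of 1 FPKM, and genes with status OK (16219 of 37574) and q below 0.05 were counted as called. The members, the lists and the named genes were chosen with earlier results of these data known. All members and all protease genes are named, and of serpins of other clades and of neighbours within 200 kb those called that reached 5 FPKM in either fraction. Of these, 1 gene is not reported here. Neighbours that did not pass were named after their values were seen. The deposited starts count from 0, since end minus start equalled the GENCODE gene length for 12134 genes and that length less 1 for 301, so 1 was added to each start. Overlapping genes share a deposited locus. Coding sequences are the longest reading frames of GENCODE M21 transcripts, aligned globally with Biopython 1.88. TGANTCA was searched before TGAGTCA, which replaced it as the AP-1 motif, and the rule for the loop was widened after a first version missed some members. The counting of calls was tested on simulated data with q-values set in advance, which checks the counting and not the authors' test. Python 3.11.15, pandas 2.3.3, NumPy 2.4.6 and matplotlib 3.10.9 were used.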

Additional observations from a re-analysis of the deposited data

How the results depend on the processing

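Counts were recomputed with q below 0.01 and below 0.1, at least 1 FPKM in the higher fraction, at least a 2-fold difference on the log2(FPKM + 1) scale, and without genes whose deposited locus is shared. Of these counts and of the cluster medians under their alternatives, 62 stayed within 1.5 times the reported value and 8 did not. With a 2-fold minimum, the Serpinb genes called lower went from 11 to 7 and those of chromosome 13 from 4 to 0, serpins of other clades called higher from 2 to 1, and neighbours called lower from 3 to 1. Without shared loci, Serpinb genes called higher went from 2 to 1, on chromosome 13 also from 2 to 1 because Serpinb6a shares its locus, and protease genes called lower from 8 to 5; fewer genes enter that count. The chromosome 13 median went from -0.66 to -0.047 when the untested genes with any FPKM above 0 were added, most of which lie near 0. For single genes, Serpinb1c did not pass at q below 0.01 and Serpinb3b passed at q below 0.1. The other settings could not reverse a called gene, so they do not test direction. Another pseudocount keeps the sign of a fold. Centring subtracts 0.0123, and rescaling without microRNA rows is a log2 shift of -0.0276. The called Serpinb gene nearest to 0, Serpinb9, had a log2 fold of -0.655. No paired analysis was possible because the deposited table joins the 2 samples of a fraction and carries no replicate number, and leaving out a replicate could not be run for the same reason. The 9 untested genes are not shown to be absent, since sample depths are unknown.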

Other observations

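Serpins of other clades, which are mostly secreted, were lower in 8 and higher in 2 of the 12 tested among 39, beside 14.2% and 13% of all tested genes, with a median log2 fold of -1.02. Serpinh1, a chaperone for collagen in the endoplasmic reticulum, rose from 37.2 to 69.8 FPKM. Those that fell with at least 5 FPKM in Tomato-negative cells were Serping1, the C1 inhibitor of complement, from 73.0 to 7.20 FPKM, Serpinf1 from 33.6 to 7.14 FPKM, Serpina9 from 39.3 to 17.3 FPKM, Serpina3n from 12.6 to 1.80 FPKM and Serpina12, which ended at 5.09 FPKM with a log2 fold of -1.85. These 6 genes each had q = 0.000405 in the authors' deposited table. Fibroblast markers, from cells that also express Serping1 and Serpinf1, fell in the same comparison in 6 of 6, and the part of those cells in these values was not tested.

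Among 16 tested neighbours of the clusters that are no Serpinb genes, 2 were called higher (12.5%, beside 13% of all tested genes) and 3 lower (18.75%, beside 14.2%). These pooled shares are near those of all genes, and the counts per chromosome are too small to set the chromosomes apart. On chromosome 1, 2 of 6 tested neighbours were lower (33.3%) and 0 higher. Both of the lower ones, Gm8080 and Gm8089, resemble Serpinb3 genes in sequence. On chromosome 13, 1 of 10 was lower (10%) and 2 were higher (20%). Within the chromosome 1 cluster, the predicted gene Gm8080 fell from 139 to 58.4 FPKM with q = 0.000405 and Gm8089 from 14.1 to 8.48 FPKM (q = 0.0316, authors' deposited table), while Gm8084, at 60.9 and 22.4 FPKM, did not pass. The transcript of Gm8080 was 92.8% identical to the coding sequence of Serpinb3a, and those of Gm8089 and Gm8084 were 94.6% and 93.2% identical to that of Serpinb3d, so reads of these genes and of the Serpinb3 genes can be exchanged. Outside the cluster, Vps4b (44.5 and 43.5 FPKM) and Kdsr (5.31 and 4.87 FPKM) did not pass. Beyond Serpinb6a on chromosome 13, the tubulin genes Tubb2a, from 176 to 398 FPKM, and Tubb2b, from 62.8 to 162 FPKM, rose, and Slc22a23 fell from 26.6 to 14.4 FPKM, each with q = 0.000405 in the authors' deposited table. Bphl, which lies between Serpinb6a and Tubb2a, stood at 10.2 and 6.87 FPKM and did not pass.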
